A study of Zea mays with 10 samples.

Results

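The 714 allele dosage series consists of 3 of the 10 small RNA libraries of a maize (Zea mays) study of copy number alterations. The libraries were made from leaf of B73, with 0 copies of the allele, of 714H, with 1 copy (genotype P1-ww714/B73), and of 714, with 2 copies (genotype P1-ww714). They were chosen by their labels, with 1 library for each dose, so the comparisons describe libraries and carry counting error only. The other leaf libraries came from id1 (P1-wwid1), id4 (P1-wwid4) and 9d9a (P1-vv9d9a), which do not carry the 714 allele and serve below as further libraries with 0 copies. All plants were 14-day old seedlings grown with 15 h of light. The labels do not say how many plants went into a library, and the leaf libraries are titled leaf but carry seedling as their tissue. The genotype of 714H is given as the 714 allele over B73, but the background of the 714 stock outside the allele is not described, so the allele and that background cannot be told apart.

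The p1 gene, on chromosome 1, makes a Myb-family transcription factor that switches on red phlobaphene pigments, and its alleles are named after the colour they give pericarp and cob. Published work on these stocks describes 714 as carrying a duplicated stretch of chromosome 1 beside p1. Most small RNAs of plants are short interfering RNAs made from transposons and other repeats, where they guide DNA methylation, and microRNAs from a limited number of loci make up much of the rest. A product whose level is additive in gene copies is placed midway between 0 and 2 copies when 1 copy is present.

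Reads were counted by the authors in 100 kb windows along the 10 chromosomes. The genome build of the window positions is not given, so the place taken for p1, near 48 Mb of chromosome 1, is approximate. B73 leaf held 18396214 reads, 714H leaf 9995528 and 714 leaf 9938924, and the median window held 506, 266 and 268 reads, with relative counting errors (SE) of 4.45%, 6.13% and 6.11%. Levels are given in CPM, reads of a window scaled to 1000000 reads in the library. Windows with a mean of at least 50 reads over the 3 libraries were compared, 17426 of the 20584 windows with reads in any library. No gene annotation of the windows was used, so tissue was checked on 10 windows chosen for the largest ratio of the lowest leaf to the highest root level in B73, id1, id4 and 9d9a. In all 10 windows both 714 and 714H lay above every root library, 2.80 to 89.2-fold above the highest of them in 714 and 1.99 to 106-fold in 714H. In 3 of the 10 windows neither of them reached the lowest of those 4 leaf libraries.

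The comparison of 714 with B73 asks where small RNA differed between 2 and 0 copies. Over the genome 185 windows were at least 2-fold higher in 714 than in B73 (1.06% of the windows compared) and 491 at least 2-fold lower (2.82%). The count of higher windows rested on the read minimum, with 360 at a mean of at least 1 read and 114 at 200. Windows that were lower lay mainly on chromosome 1 (183 windows, 6.97% of those compared there), chromosome 4 (193, 9.57%) and chromosome 5 (66, 3.57%). Chromosome 3 had 23 (1.20%), a share below the 2.82% of all windows. On chromosome 1 the stretch from 20 to 70 Mb, which holds p1, had 156 of the 183. There 33.8% of 462 windows were at least 2-fold lower and 8.66% at least 2-fold higher. Among all 16964 windows outside the stretch the shares were 1.97% and 0.855%. The 9017 windows of chromosomes 2 and 6 to 10, where few lower windows lay, had 0.288% and 0.765%. Lines without the allele were low at 20 to 70 Mb of chromosome 1 too. Of the 462 windows, 40.04% were at least 2-fold lower in id1, 32.9% in id4 and 24.9% in 9d9a. At least 2-fold higher were 4.98%, 2.16% and 0.433%.

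714H was at least 2-fold higher than B73 in 126 windows (0.723%) and at least 2-fold lower in 531 (3.05%). Its windows with lower counts were placed differently. They made up 14.3% of the windows of chromosome 4, 5.11% of chromosome 3 and 3.41% of chromosome 5, but 2.38% of the windows at 20 to 70 Mb of chromosome 1. A 714H level midway between B73 and 714 cannot be more than 2-fold below B73. The rule therefore leaves out lower windows of that kind, and the 2.38% does not count them. As single libraries without the allele, id1 was at least 2-fold lower than B73 in 443 windows (2.54%), id4 in 241 (1.38%) and 9d9a in 290 (1.66%), and they were at least 2-fold higher in 85 (0.488%), 55 (0.316%) and 28 (0.161%). The B73 library is shared by all of these ratios. The read minimum was set on B73, 714H and 714, so a window high only in id1, id4 or 9d9a can be left out. Counts of higher windows in those lines are therefore not on the same footing as those of 714 and 714H. Over all windows the log2 ratios to B73 had interquartile ranges of 0.35 for 714 and 0.32 for 714H, against 0.26, 0.26 and 0.23 for id1, id4 and 9d9a.

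The level of 714H was then set against the midpoint of B73 and 714. Where 714 differed from B73 by at least 2-fold, the position of 714H was expressed as its share of the distance from B73 (0) to 714 (1) on the CPM scale, so that an additive level gives 0.5. The windows around p1 and those in the rest of the genome were arranged differently. At 20 to 70 Mb of chromosome 1 the median position was 0.45 (quartiles 0.40 and 0.52) in the 40 windows higher in 714 and 0.46 (0.37 and 0.55) in the 156 windows lower in 714. Elsewhere it was 0.87 (0.66 and 1.09) in 145 windows that were higher and 0.95 (0.83 and 1.05) in 335 that were lower. The read minimum is a mean over the 3 libraries, so a window with few B73 reads passes it only where 714H or 714 is high. With a mean of at least 1 read the median of the higher windows elsewhere was smaller, as given below.

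Most windows around p1 had 714H near the middle, and most of those elsewhere had it near 714. Between 0.25 and 0.75 lay 38 of the 40 and 140 of the 156 windows at 20 to 70 Mb of chromosome 1, against 48 of the 145 and 52 of the 335 elsewhere. Beyond the level of 714 lay no window of that stretch, against 47 of the 145 and 133 of the 335 elsewhere. The 95% counting interval of 714H over the midpoint included 1 in 28 of the 40 and 91 of the 156 windows of the stretch. It lay wholly on the side of B73 in 8 and 43 of them, and wholly on the side of 714 in 4 and 22. Elsewhere it included 1 in 47 of the 145 and 36 of the 335, and it lay wholly on the side of 714 in 95 and 297. Neighbouring windows share libraries and can share repeats, so no test was made over windows. With the averaged level of B73, id1, id4 and 9d9a as the level at 0 copies, the median position at 20 to 70 Mb of chromosome 1 was 0.49 in the windows then higher in 714 but -0.14 in those then lower, so the middle position of the lower windows depends on B73. B73 is the line that the 714H genotype names beside the 714 allele. Of the 156 windows lower in 714 there, 138 were also at least 2-fold lower than B73 in id1, 92 in id4 and 87 in 9d9a, which lowers the averaged level.

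**Figure D1:**
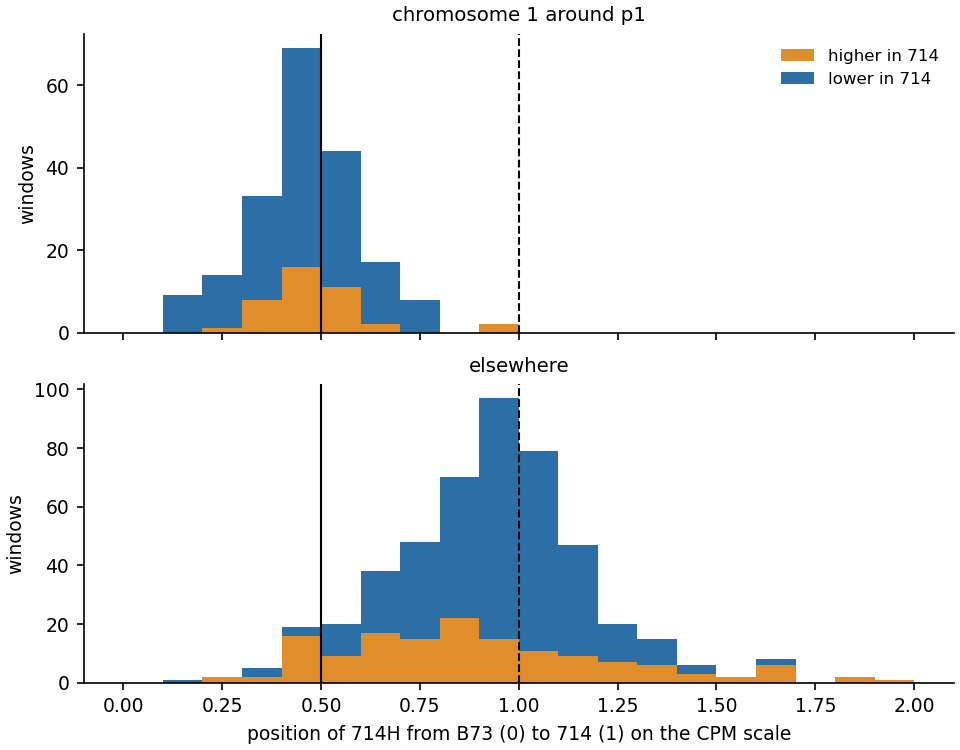
Histograms of the position of 714H between B73 (0) and 714 (1) in windows at least 2-fold higher (orange) or lower (blue) in 714 than in B73, for 20 to 70 Mb of chromosome 1 around p1 (top) and the rest of the genome (bottom). The x axis is a share of the distance on the CPM scale and the y axis counts 100 kb windows; the solid line marks 0.5 and the dashed line 1. The windows around p1 have medians of 0.45 (higher) and 0.46 (lower), and those elsewhere 0.87 and 0.95.

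The window that ends at 48.2 Mb of chromosome 1, beside p1, had the largest ratio of 714 to B73 in the genome. It held 24.5 CPM in B73 (450 reads), 596 CPM in 714H (5957 reads) and 1423 CPM in 714 (14141 reads). 714 was 58.2-fold above B73 (exact 95% counting interval 53.0 to 64.0) and 714H 24.4-fold above it (22.1 to 26.9). 714H lay at 0.41 of the distance and was 0.82 of the midpoint (0.80 to 0.85). The level was also high in id1 (1277 CPM) and id4 (980 CPM), and 34.0 CPM in 9d9a.

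From 48 to 51 Mb, 714 was above B73 in 24 of the 29 windows compared, at least 2-fold higher in 18 and at least 2-fold lower in 2, at 50.6 and 50.8 Mb. Summed over the 29 windows, B73 held 1463 CPM, 714H 2930 and 714 4730, while id1 held 4231, id4 2276 and 9d9a 1174. Relative to B73 the median log2 ratio was 1.13 for 714 and 0.57 for 714H, which correspond to 2.19-fold and 1.48-fold, and it was 1.03, 0.01 and -0.02 for id1, id4 and 9d9a. Of the sums, the window beside p1 gave 24.5 CPM in B73, 596 in 714H and 1423 in 714. It gave 1277 CPM in id1, 980 in id4 and 34.0 in 9d9a. The sums of 714H, 714 and id1 thus rest in good part on this window and that at 50.1 Mb, given below. The median of 714H over the midpoint was -0.10. With the averaged level of B73, id1, id4 and 9d9a in place of B73 the medians were 0.71 for 714 and -0.20 for 714H over the midpoint. In 24 of the 29 windows the 3 libraries ran in the order B73, 714H, 714. At 50.1 Mb, 88.7 CPM were counted for B73, 552 for 714H and 933 for 714, with 714H at 0.55 of the distance. In this window id1 had 788 CPM, and id4 and 9d9a had 73.7 and 89.0, close to B73.

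From 51 to 63 Mb the levels alternated between windows above and below B73, and 714H followed at the midpoint. The median log2 ratio of 714 to B73 was -0.40 over 111 windows, with 19 at least 2-fold higher and 42 at least 2-fold lower. The median of 714H over the midpoint was 0.00 (95% interval of the median -0.04 to 0.03, which covers the scatter of windows). With that averaged level in place of B73 the medians were 0.10 for 714 and 0.22 for 714H over the midpoint. Some stretches within it had medians above B73 in 714. Over 9 windows at 55 to 56 Mb, 714 and 714H had medians of 0.91 and 0.43, against -0.15, 0.01 and -0.06 for id1, id4 and 9d9a, and the 95% interval of the 714 median was -1.23 to 1.36. Over 19 windows at 61 to 63 Mb they had 1.08 and 0.65, against -0.08, -1.16 and 0.16, with an interval of -0.26 to 1.48 for 714. Both intervals include 0. These stretches were picked after their values were seen. Summed over the windows at 61 to 63 Mb, B73 held 964 CPM, 714H 1380 and 714 1813.

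On the other side of p1, at 33 to 48 Mb, 714 was lower than B73 with 714H between. The 138 windows held 11006 CPM for B73, 9610 for 714H and 6948 for 714, while id1, id4 and 9d9a held 8253, 8292 and 7620. The medians relative to B73 were -1.05 for 714 and -0.36 for 714H, with -1.12, -0.58 and -1.03 for id1, id4 and 9d9a. 714H over the midpoint had a median of 0.06. With the averaged level in place of B73 these medians were -0.43 for 714 and 0.38 for 714H over the midpoint. A similar order was found at 63 to 66 Mb, where the medians were -0.94 in 714 and -0.25 in 714H over 29 windows, with -0.98, -0.79 and 0.08 for id1, id4 and 9d9a. There the median of 714H over the midpoint was 0.10, against 0.34 with the averaged level. In 1 Mb bins from 27 to 66 Mb the median of 714H over the midpoint stayed between -0.21 and 0.24 in all 39 bins, although the 714 medians ran from -2.25 to 1.20.

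**Figure D2:**
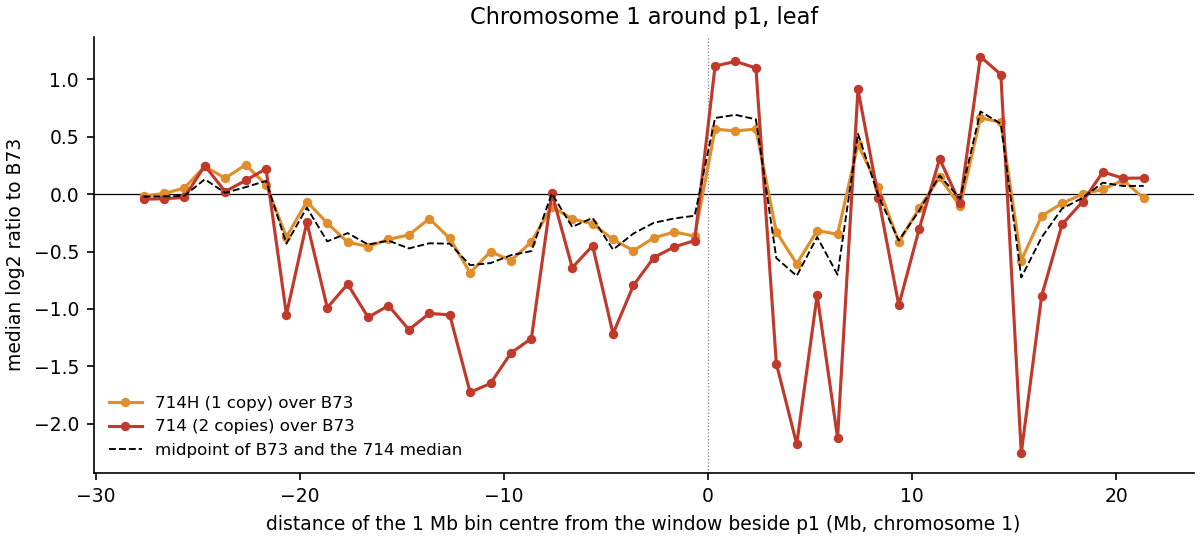
Median log2 ratio to B73 in leaf of 714H (orange) and 714 (red) in 1 Mb bins of chromosome 1, by distance from the window beside p1. The dashed line is the midpoint of B73 and the 714 median of each bin. 714 swings from -2.25 to 1.20 and the 714H line runs close to the dashed line on both sides of p1.

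The 10 windows with the lowest ratio of 714 to B73 all lay between 47.6 and 65.6 Mb of chromosome 1 and were nearly empty in 714. At 53.5 Mb B73 had 65.9 CPM (1212 reads), 714H 25.8 CPM (258 reads) and 714 0.10 CPM (1 read), a ratio of 714 to B73 of 0.0015 (95% counting interval 3.86e-05 to 0.0085). At 63.7 Mb the levels were 35.1, 17.8 and 0.30 CPM, where 714 had 3 reads and the ratio was 0.0086 (0.0018 to 0.025). At 63.9 Mb they were 83.5, 37.0 and 2.31 CPM. In these 3 windows 714H lay at 0.61, 0.50 and 0.57 of the distance from B73 to 714. Of the genome's 20 windows with at most 0.1 of the B73 level in 714, 19 lay at 20 to 70 Mb of chromosome 1. In those 19 the ratio of 714H to B73 ran from 0.27 to 0.81 with a median of 0.58. The id1 library was low in the windows given above too, with 0.20 CPM at 53.5 Mb, 0.60 at 63.7 Mb and 2.40 at 63.9 Mb. The id4 library had 2.12, 7.64 and 50.8 CPM in these windows, and 9d9a 71.3, 33.8 and 87.8.

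Among these 10 windows 714H was farthest from the middle at 65.5 Mb, where 172 reads in B73, 76 in 714H and 2 in 714 were counted and 714H was 1.59 of the midpoint (1.22 to 2.09). The counting interval included the midpoint at 47.6, 60.9, 62.0 and 63.7 Mb.

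**Figure D3:**
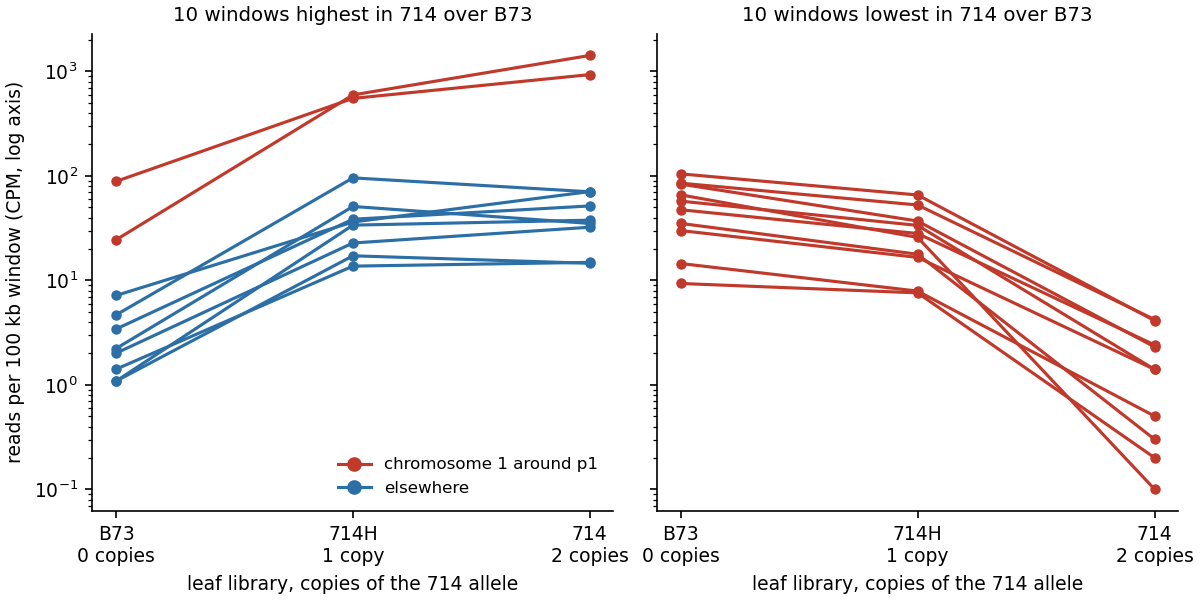
Level (CPM, log axis) in the B73, 714H and 714 leaf libraries, with 0, 1 and 2 copies of the 714 allele, of the 10 windows with the highest (left) and lowest (right) ratio of 714 to B73. Each line is 1 window; red lines lie at 20 to 70 Mb of chromosome 1 around p1, blue lines elsewhere. All 10 of the lowest windows are red, and in most blue lines 714H is as high as 714 or nearly so.

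Chromosomes 3, 4 and 5 differed from this. Long segments there were lower than B73 in both 714 and 714H. In the segments of chromosomes 3 and 4 and in that at 10 to 25 Mb of chromosome 5, 714H had a median close to that of 714 or lower, and at 170 to 210 Mb of chromosome 5 it had a higher one. Of the 636 windows with 714H at least 1.5-fold below the midpoint (3.65% of all compared), the shares were 15.9% of windows on chromosome 4, 6.10% on chromosome 3 and 4.38% on chromosome 5, against 0.866% at 20 to 70 Mb of chromosome 1. At least 1.5-fold above the midpoint lay 78 windows (0.448%). Segments were formed by joining neighbouring 5 Mb blocks with a median log2 ratio to B73 of -0.3 or less in 714 or 714H, a rule set after the values were seen. It gave 14 segments of 210.0 Mb in all. Chromosome 4 had 6 of them, chromosome 1 had 4, chromosome 5 had 2, and chromosomes 2 and 3 had 1 each.

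On chromosome 4 from 145 to 155 Mb, the 91 windows held 5179, 2873 and 2827 CPM for B73, 714H and 714, while id1, id4 and 9d9a held 5160, 5158 and 5187. The medians relative to B73 were -0.96 for 714 and -0.93 for 714H. At 120 to 135 Mb the sums were 3209, 2106 and 2105 CPM in B73, 714H and 714, and 3230 to 3323 in the other lines. In both segments the sums of 714H and 714 lay close together, well below the sums of B73 and the other lines.

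In other segments 714H was lower than 714. At 205 to 230 Mb of chromosome 3, B73 held 24723 CPM, 714H 16123 and 714 18407 over 238 windows, and the other lines 24572 to 24895. The medians were -0.49 in 714 and -0.69 in 714H, and 714H lay below both B73 and 714 in 167 of the 238 windows. Within that segment the window at 221.8 Mb held 130 CPM for B73, 16.5 for 714H and 60.8 for 714, with 106 to 138 in id1, id4 and 9d9a. At 219.9 Mb they were 165, 24.7 and 106 CPM. The ratio of 714 to B73 was 0.47 (0.43 to 0.51) and 0.64 (0.60 to 0.69) in these windows, and that of 714H 0.13 (0.11 to 0.15) and 0.15 (0.13 to 0.17).

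The same order was found on chromosome 4 at 15 to 45 Mb, with 12756, 8935 and 9849 CPM for B73, 714H and 714, and on chromosome 5 at 10 to 25 Mb, with 11882, 8305 and 9478. In the first, 714H was below both other libraries in 177 of 270 windows, and in the second in 108 of 145. The other lines held 12643 to 12985 CPM and 11550 to 11874 CPM. On chromosome 2 the block at 210 to 215 Mb had medians of -0.22 in 714 and -0.56 in 714H, with -0.03, 0.03 and -0.02 in id1, id4 and 9d9a.

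The distal segment of chromosome 5, at 170 to 210 Mb, lay between the arrangements. It held 34513, 27221 and 24058 CPM for B73, 714H and 714 over 378 windows, and 33397 to 34117 in the other lines. The medians were -0.50 in 714 and -0.37 in 714H, and 714H lay between B73 and 714 in 238 of the 378 windows. The median of 714H over the midpoint was -0.14. On chromosome 1 at 245 to 260 Mb, 714H and 714 had medians of -0.39 and -0.26, with 0.16 to 0.19 in id1, id4 and 9d9a, so that B73 was the library between the allele carriers and the other lines.

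**Figure D4:**
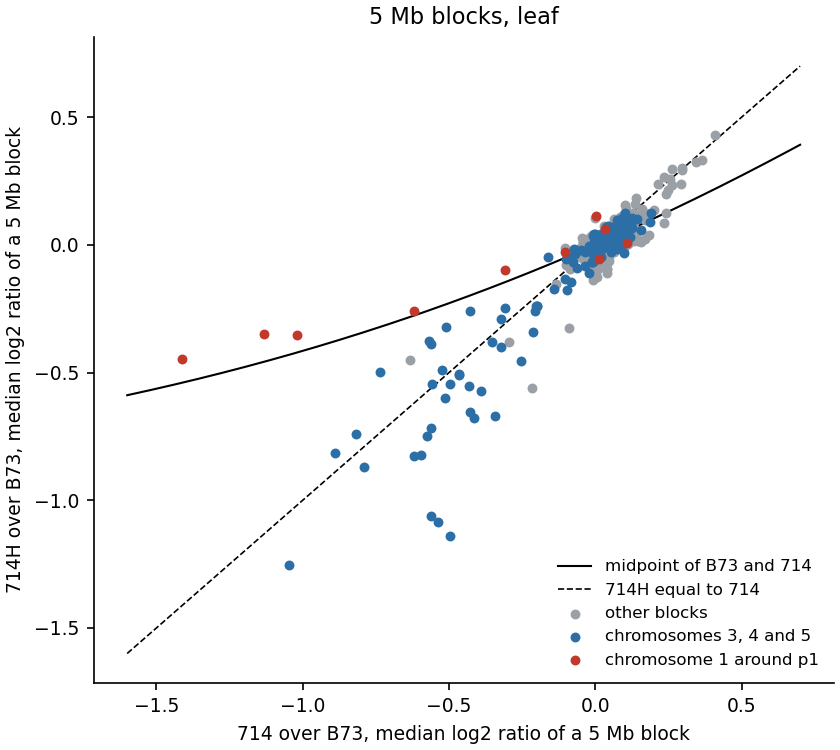
Median log2 ratio to B73 of 714 (x axis) and 714H (y axis) in 406 blocks of 5 Mb, leaf. The solid curve is the midpoint of B73 and 714 and the dashed line equality of 714H and 714. Red blocks, at 20 to 70 Mb of chromosome 1 around p1, lie along the solid curve, and the low blocks of chromosomes 3, 4 and 5 are blue. Those of chromosomes 3 and 4 lie near or below the dashed line, and most of those at 170 to 210 Mb of chromosome 5 lie above it.

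Among all 406 blocks of 5 Mb, 37 had a median log2 ratio of 714 to B73 of -0.3 or less. In 20 of the 37, 714H had a lower median than 714, and in 7 the median of 714H over the midpoint was within 0.1 of 0. Of the 5 blocks lowest in 714, chromosome 1 held those starting at 35 Mb (-1.41), 50 Mb (-1.13) and 30 Mb (-1.02), with 714H at -0.45, -0.35 and -0.35. Chromosome 4 held those starting at 150 Mb (-1.05) and 120 Mb (-0.89), with 714H at -1.25 and -0.81. Relative to the midpoint, 714H was lowest on chromosome 3 in the blocks starting at 220 Mb (-0.91) and 215 Mb (-0.85). Next came chromosome 4 with blocks starting at 150 Mb (-0.77) and 20 Mb (-0.76), and chromosome 5 with one starting at 20 Mb (-0.54). No block had a median of 714H over the midpoint above 0.19.

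714 and 714H were next set against all 4 leaf libraries without the allele. Both were above all 4 of those libraries in 2986 windows (17.1%) and below all 4 in 3006 (17.3%), by any amount. At 20 to 70 Mb of chromosome 1 these were 51 and 8 of 462 windows. At least 2-fold above the highest of the 4 leaf libraries without the allele, in both 714 and 714H, were 49 windows (0.281%), and at least 2-fold below the lowest of them were 128 (0.735%). None of either 2-fold set lay at 20 to 70 Mb of chromosome 1, which has 462 of the 17426 windows compared, and 115 of the 128 lay on chromosome 4. A 714H level midway between B73 and 714 cannot be more than 2-fold below B73, so the lower set leaves such windows out by its rule. The lines without the allele were often low in that stretch as well, which also keeps its windows out of the lower set. A 714H level midway is 2-fold above B73 only where 714 is well more than 2-fold above it, which limits the higher set. Of the 40 windows of the stretch higher in 714, 714H was at least 2-fold above B73 in 11 and within 2-fold in 29. Of the 40, 19 were also at least 2-fold higher than B73 in id1, 7 in id4, 2 in 9d9a and 20 in none. The absence of the stretch from both sets is therefore partly set by the rules. In the 49 windows the median position of 714H was 1.01 (quartiles 0.89 and 1.38), and 714H was above 714 in 26. In the 128 it was 1.0 (0.94 and 1.08). In both sets the rule itself asks for a 2-fold difference of 714H from B73, which keeps out positions near B73. These positions are therefore partly set by the rule. A window with few B73 reads could also enter the higher set only where 714H or 714 was high.

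Chromosome 9 at 28.1 Mb had 1.09 CPM in the B73 library (20 reads), 33.8 CPM in 714H (338 reads) and 37.7 CPM in 714 (375 reads), and id1, id4 and 9d9a had 0.60, 1.38 and 0.71. 714 was 34.7-fold above B73 (22.1 to 57.5) and 714H 31.1-fold (19.8 to 51.6). With 20 reads in B73, this window passed the read minimum only through 714H and 714, as did others below with few B73 reads. The window at 154.8 Mb of chromosome 2 held 4.67, 95.8 and 70.5 CPM for B73, 714H and 714, and 4.01 to 5.79 in the other lines. The window ending at 48.2 Mb of chromosome 9 held 2.23, 51.02 and 35.1 CPM, and 1.70 to 2.60 in the other lines. In these last windows 714H was above 714, at 1.38 and 1.48 of the distance from B73, and 2.55-fold (2.32 to 2.80) and 2.73-fold (2.39 to 3.12) above the midpoint.

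Chromosome 4 had a pair of windows among the 10 highest in 714, at 91.0 and 94.5 Mb, with 1.41 and 1.09 CPM in B73, 13.7 and 17.2 in 714H and 14.9 and 14.6 in 714. Chromosome 1 at 247.7 Mb had 3.42 CPM for B73, 38.5 for 714H and 51.6 for 714. The window at 32.2 Mb of chromosome 6 held 2.01, 22.8 and 32.3 CPM, and there id1 had 19.7 CPM while id4 and 9d9a had 2.23 and 2.12. The window at 67.4 Mb of chromosome 8 held 7.18, 36.2 and 70.8 CPM for B73, 714H and 714, and 56.5 to 63.2 for id1, id4 and 9d9a. 714H was at 0.46 of the distance there, 0.93 of the midpoint (0.82 to 1.05), although the window lies on another chromosome than p1.

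Only that window of chromosome 9 was farther above the midpoint in 714H than chromosome 1 at 221.0 Mb, where 82 reads in 714H and 48 in 714 stood against 22 in B73 (2.72-fold, 1.97 to 3.77). The window at 221.0 Mb passed the read minimum only through its reads in 714H and 714, which also set its rank. After the window of chromosome 2, chromosome 1 at 172.6 Mb (2.36-fold) and chromosome 10 at 72.5 and 45.8 Mb (2.28-fold and 2.21-fold) followed. It was farthest below the midpoint on chromosome 1 at 126.8 Mb, with 21.6, 1.90 and 2.21 CPM for B73, 714H and 714. The third farthest below was at 144.5 Mb on chromosome 2, with 32.9, 3.001 and 1.71 CPM. In both of these id1 was low as well, at 1.60 and 1.70 CPM. The id4 library held 10.5 and 15.8 CPM there, and 9d9a 2.36 and 52.5, so 9d9a was low in the first only. The others, at 0.17 to 0.19 of the midpoint, were chromosome 3 at 221.8, 223.3 and 219.9 Mb and chromosome 4 at 20 Mb.

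Blocks with the highest ratios of 714 to B73 were shared with lines that lack the allele. The highest block, at 280 to 285 Mb of chromosome 1, had medians of 0.41 for 714 and 0.43 for 714H, and 0.37, 0.44 and 0.38 for id1, id4 and 9d9a. The block at 135 to 140 Mb of chromosome 6 was at 0.36 in 714 and 0.33 in 714H, and at -0.26, 0.30 and 0.34 in the other lines. The remaining 3 of the 5 highest, with starts at 290 and 265 Mb on chromosome 1 and 140 Mb on chromosome 6, had 0.35, 0.30 and 0.30 in 714 and 0.32, 0.30 and 0.29 in 714H. In all of these blocks the B73 library was lower than 714, 714H, id4 and 9d9a, and 714H over the midpoint was 0.12 to 0.19. The 5 blocks highest in 714H over the midpoint were among these, except that the block starting at 285 Mb of chromosome 1 (0.15) took the place of that starting at 290 Mb.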

How the data were processed

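Small RNA of 10 maize libraries was analysed, of which 3 form the dosage series. The deposited files hold counts, whole-number read totals per 100 kb window, per the file headers. The submitters' processing notes name Bowtie. The genome build, the settings, the read lengths and the handling of reads that match several places were not given in the sources used here. Sequence that a line does not share with the reference can lower its counts. Windows not listed in a file were taken as 0, and a position was read as the start of its window in Mb.

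Counts were divided by the library total (CPM). Ratios to B73 have exact 95% intervals (Clopper-Pearson, on the share of reads from 1 of the libraries), and ratios of 714H to the midpoint carry delta-method 95% intervals on the log scale. Both cover only counting error, because each dose has 1 library. PCR copies cannot be told from separate molecules, so the intervals may be too narrow even for that error. With 1 library per dose no test was made. Windows and blocks were named by size, among windows with a mean of at least 50 reads and blocks of 5 Mb with at least 20 windows: the 10 highest and 10 lowest in 714 over B73, the 6 highest and 6 lowest in 714H over the midpoint, the 3 with most reads, the window beside p1, and 5 blocks at each end of both ratios. Intervals of medians come from the binomial distribution of ranks. The series, segments and lists were chosen with earlier results of these data known. Python 3.11.15, scipy 1.17.1, edgeR 4.0.16 (TMM) and DESeq2 1.42.0 (size factors) were used, and the ratio calculations were tested on simulated data.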

Additional observations from a re-analysis of the deposited data

How the results depend on the processing

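TMM and median-ratio scaling left every count within 1.5 times its reported value, and each median position and each median of the segments beside p1 within its interval. With a mean of at least 1 read, 360 windows were higher in 714 and 266 in 714H, and 714H lay above the midpoint in 371 and below it in 1038. The median positions were then 0.64 (higher) and 0.77 (lower), and outside 20 to 70 Mb of chromosome 1 0.69 and 0.91. With at least 200 reads, 114 windows were higher in 714, 72 in 714H and 31 above the midpoint.

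With B73 replaced by the averaged level of B73, id1, id4 and 9d9a, 163 windows lay above the midpoint and the median position in windows lower in 714 was 0.92. Several values around p1 rest on B73 as the library with 0 copies. The median position of the lower windows at 20 to 70 Mb became -0.14. For 714 the median was -0.43 at 33 to 48 Mb, 0.71 at 48 to 51 Mb and 0.10 at 51 to 63 Mb, where it changed sign. For 714H over the midpoint it was 0.38, -0.20, 0.22 and 0.34 in the 4 stretches from 33 to 66 Mb. In that stretch id1, id4 and 9d9a themselves differ from B73, the line named in the 714H genotype.

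Summed over 500 kb, 9 windows were higher and 67 lower in 714, 5 and 73 in 714H, and 1 and 96 above and below the midpoint. Fewer windows are compared at that size, and the cause of any further fall was not tested. The median positions were 0.49 (higher) and 0.78 (lower). Of the values of named windows under the alternatives, 276 stayed within their counting interval and 36 moved, and of those of named blocks 166 stayed within the interval of the median and 14 moved, with no change of sign among those past the size rule. Some named windows had no value with at least 200 reads. No paired analysis was possible because each group holds 1 library. Depth limits the emptiest windows, which rest on 1 to 3 reads in 714.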

Other observations

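The 3 windows with the most reads in the dosage series did not share an order of doses. At 96.1 Mb of chromosome 6 B73 held 16886 CPM, 714H 23336 and 714 16793, and id1, id4 and 9d9a held 26127, 19158 and 20812, so 714 and B73 were alike and 714H stood 1.39-fold above their midpoint. This window took 1.68% to 2.33% of the reads of the 3 libraries. The window at 195.0 Mb of chromosome 4 held 4297, 5775 and 5380 CPM for B73, 714H and 714, and 4274 to 4810 in the other lines. At 183.5 Mb of chromosome 5, within the segment that is lower in 714, they were 7186, 4316 and 3051 CPM, and 6153 to 7646 in the other lines. 714H was at 0.69 of the distance from B73 to 714 there, and 714 was 0.42 of B73 (95% counting interval 0.42 to 0.43). The window is one of the 10 that separate leaf from root in B73, id1, id4 and 9d9a, and the highest root library held 1058 CPM.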
